A study of Rattus norvegicus with 18 samples.

Results

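The genes described here encode enzymes and carriers of fatty acid oxidation in mitochondria and peroxisomes, measured in rat kidney. They were chosen by name from a list of 37 genes, and 36 of the 37 had a row in a table of 32116 genes. Decr2, a peroxisomal reductase, had no row under that name and was not analysed here. All 36 passed the filter on low values, as did 13851 genes in all. Of the 36, 19 were classed as mitochondrial, 9 as peroxisomal and 8 as both or other, a class for enzymes that textbooks place in both organelles or partly outside them. RNA of whole kidneys was sequenced in 18 libraries, 6 in each of 3 groups. SZ kidneys came from rats on daily adenine at 100 mg per kg body weight plus SZ-A at 300 mg per kg body weight, CKD kidneys from rats on that amount of adenine without SZ-A, and NC kidneys from untreated rats. The sources used here do not say what SZ-A is chemically, nor the strain, age or sex of the rats. Adenine feeding is a standard model of chronic kidney disease, in which an insoluble oxidation product of adenine settles in the tubules.

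Fatty acid oxidation shortens acyl-CoA by an acetyl unit per cycle. Long chains are joined to coenzyme A, handed to carnitine, carried across the inner mitochondrial membrane and handed back. Each cycle then runs through a dehydrogenase, a hydratase, a second dehydrogenase and a thiolase, and electrons leave through the electron transfer flavoprotein. Peroxisomes run a parallel cycle on very long, branched and dicarboxylic chains with an oxidase as the first step and a multifunctional enzyme for the next steps. The proximal tubule, the bulk of the kidney cortex, draws most of its energy from this pathway and is rich in both organelles.

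Library totals lay between 15354358 and 18532375 reads. The deposited unit was FPKM, fragments per kilobase of gene, scaled by library size, so levels of different genes can be set side by side. In 3 libraries the values of protein coding genes averaging 5 FPKM or more fell with gene length relative to the other libraries. The slope was -0.31 log2 units per doubling of length in CKD 5, -0.25 in SZ 3 and -0.21 in CKD 2, against -0.10 in CKD 1 and 0.011 to 0.11 in the others. Labels give a group and a number to each library but do not tie it to 1 animal, so the spread between libraries may be technical in part.

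Transcripts of nearly the whole pathway were lower in rats on adenine without SZ-A than in untreated rats. In CKD against NC kidneys, 32 of the 36 genes fell and 0 rose (limma, adjusted p under 0.05 over all genes tested). Among all 13851 genes, 26% were called lower and 24.4% higher (3595 and 3378 genes). That split depends on scaling: 1281 genes were lower and 6591 higher with each library scaled to a fixed FPKM sum (TPM), and 1729 and 5980 with plain library totals. The median log2 fold change of the 36 genes was -0.88, beside -0.04 for all genes. Under TPM scaling the median of all genes moved to 0.34 and that of the 36 genes to -0.43, and under plain totals to 0.25 and -0.54. The gap between them was 0.77 and 0.79, beside 0.84 as deposited. A factor per library shifts all genes nearly alike, so this gap could hardly change. It places the 36 genes relative to other genes and does not test their fall. Under TPM scaling and plain totals, 25 and 28 of the 36 genes were called lower. Slc25a20, Acads, Decr1, Etfa, Crot, Hsd17b4 and Scp2 lost their call under TPM scaling, and Acads, Etfa, Crot and Hsd17b4 under plain totals too. Of the 36 genes, 22 had no CKD library as high as the lowest NC library, a pattern met by 12.2% of all genes, and 0 showed the reverse, met by 14.2%. The 4 that did not pass were Acadl, Etfb, Acaa1a and Phyh. Summed FPKM of the 36 genes lay between 2915 and 3819 in SZ, between 1641 and 3610 in CKD and between 4208 and 5043 in NC kidneys. In whole kidney RNA, fewer tubule cells and less RNA per cell cannot be told apart. Proximal tubule markers moved the same way: 10 of 12 fell in CKD against NC kidneys, with a median of -1.45, and 0 rose (7 fell under TPM scaling and plain totals). Their summed level was 2463 to 3553 FPKM in SZ, 694 to 2262 in CKD and 4105 to 5439 in NC kidneys, with 0 of 12 markers at 0 throughout a group. This sum weighs abundant markers most. In SZ against NC 0 of the 12 markers were called, with a median of -0.47, 10 values below 0 and 2 above. Among all genes 8.61% were called lower and 12.5% higher there. Their part in the result was not tested.

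**Figure D1:**
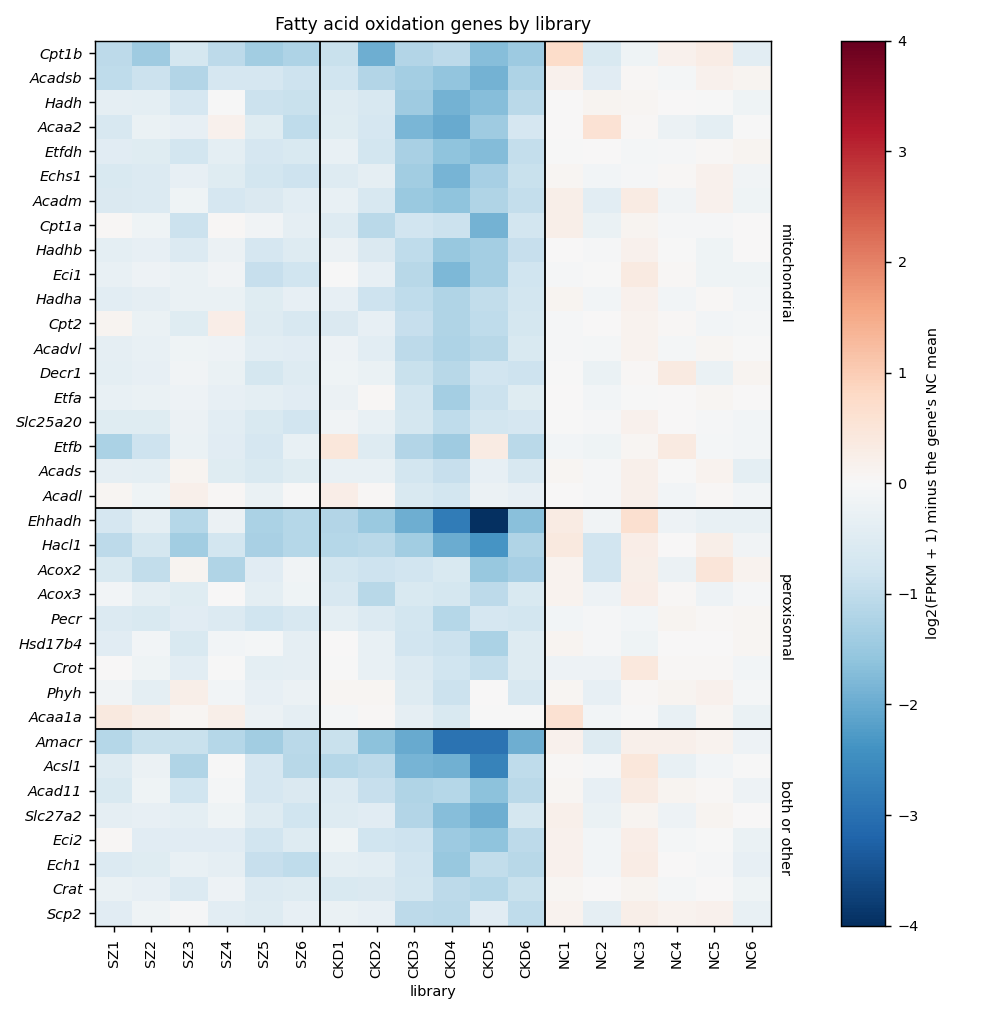
Heat map of 36 fatty acid oxidation genes (rows, grouped by compartment) in 18 libraries (columns: SZ, CKD, NC), coloured by log2(FPKM + 1) minus the gene's NC mean. Blue marks values below the NC mean, and the darkest cells are Ehhadh and Amacr in CKD 4 and CKD 5 and Acsl1 in CKD 5, with Ehhadh in CKD 5 just past the end of the colour scale.

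Carnitine shuttle genes come first in the mitochondrial route. In the values that follow, 3 numbers per group are the lowest, the median and the highest of 6 libraries. Cpt1a, the liver and kidney form of the enzyme that loads acyl chains on carnitine and sets the rate of entry, had 41.2, 68.4 and 78.7 FPKM in SZ kidneys, 19.9, 42.7 and 53.1 in CKD kidneys and 63.6, 75.3 and 89.7 in NC kidneys. Every CKD library lay below every NC library, while SZ libraries overlapped with both. The log2 fold change was -0.97 (SE 0.19, adjusted p = 0.00042) in CKD against NC and 0.73 (SE 0.19, adjusted p = 0.024) in SZ against CKD. Cpt1b, the muscle form of the same enzyme, was a minor transcript with 1.56, 2.07 and 3.20 FPKM in SZ kidneys, 0.755, 1.74 and 2.69 in CKD kidneys and 3.50, 5.80 and 10.3 in NC kidneys. Both adenine groups lay wholly below NC, and the 2 overlapped with each other. Its log2 fold change was -1.37 (SE 0.22, adjusted p = 5.1e-05) in CKD against NC and -1.14 (SE 0.22, adjusted p = 0.0011) in SZ against NC. It gave 3.40% of the summed FPKM of both genes in SZ, 4.11% in CKD and 7.28% in NC kidneys. Of 6 muscle markers, Ckm, Actc1, Myh7, Myl2 and Mb stayed under 1 FPKM in all 18 libraries. The sixth, the troponin gene Tnnt2, reached 0.582 FPKM in SZ, 5.46 FPKM in CKD and 0.224 FPKM in NC kidneys, with medians of 0.253, 1.15 and 0.0813. Cpt2 hands the chain back to coenzyme A on the inner side of the membrane, and it had 22.3, 27.1 and 42.7 FPKM in SZ kidneys, 14.6, 19.7 and 27.5 in CKD kidneys and 32.1, 35.1 and 39.0 in NC kidneys. Again no CKD library reached the NC range, and the fold changes were -0.80 (SE 0.16, adjusted p = 0.00042) in CKD against NC and 0.55 (SE 0.16, adjusted p = 0.033) in SZ against CKD. Slc25a20, the carrier that swaps acylcarnitine for carnitine between them, had 37.2, 45.0 and 53.8 FPKM in SZ kidneys, 30.8, 38.7 and 56.9 in CKD kidneys and 58.5, 62.4 and 71.9 in NC kidneys. Here CKD and SZ both lay below all NC libraries and overlapped with each other, with -0.60 (SE 0.13, adjusted p = 0.00074) in CKD against NC and 0.10 (SE 0.13, adjusted p = 0.61) in SZ against CKD.

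Acyl-CoA dehydrogenases of the mitochondrial matrix differ by chain length. Acadsb, which acts on short branched chains, showed the lowest fold change among them, with 16.4, 21.0 and 23.7 FPKM in SZ kidneys, 9.61, 14.9 and 21.9 in CKD kidneys and 28.0, 40.7 and 43.8 in NC kidneys. The adenine groups lay below NC without overlap, at -1.34 (SE 0.16, adjusted p = 1.8e-06) in CKD and -0.87 (SE 0.16, adjusted p = 0.00066) in SZ against NC. Acadm, the medium-chain enzyme, and Acadvl, the very long-chain enzyme, fell by 1.03 and 0.77 on the log2 scale in CKD against NC. Acads, the short-chain enzyme, had 37.3, 41.8 and 62.1 FPKM in SZ kidneys, 29.5, 40.8 and 46.3 in CKD kidneys and 43.4, 58.2 and 66.2 in NC kidneys. Its ranges overlapped between all groups and the log2 fold change was -0.54 (SE 0.14, adjusted p = 0.004) in CKD against NC. Acadl, the long-chain enzyme, did not pass, at 160.2, 193 and 219 FPKM in SZ kidneys, 115, 157 and 232 in CKD kidneys and 175, 190.2 and 219 in NC kidneys. The 3 groups overlapped, the highest CKD library (CKD 1) lay above every NC library, and the log2 fold change was -0.26 (SE 0.15, adjusted p = 0.15) in CKD against NC with a 95% interval of -0.57 to 0.05. Acadl was called lower after correction for gene length, with array weights and without CKD 1, and lay above 0 under TPM scaling and plain totals. Acadl and Acadm stood side by side in NC kidneys at 191 ± 16.0 and 272 ± 52.2 FPKM (mean ± SD, n = 6).

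Steps after the first dehydrogenase fell together in CKD kidneys, with all 5 genes of the hydratase, dehydrogenase and thiolase steps lower and none of their CKD ranges touching NC. Hadha and Hadhb are the alpha and beta subunits of the trifunctional protein, which does these steps for long chains. Hadha had 124, 137 and 145 FPKM in SZ kidneys, 74.4, 91.9 and 139 in CKD kidneys and 161, 170.2 and 198 in NC kidneys. CKD and SZ libraries all lay below NC libraries, with -0.85 (SE 0.12, adjusted p = 1.9e-05) in CKD against NC, 0.50 (SE 0.12, adjusted p = 0.018) in SZ against CKD and -0.35 (SE 0.12, adjusted p = 0.047) in SZ against NC, a call held in 8 of 30 alternatives. Hadhb fell by 0.94 (SE 0.17) in CKD against NC kidneys, and its share of the summed FPKM of both subunits was 53.3% in SZ, 53.4% in CKD and 54.9% in NC kidneys (SD 2.50, 4.23 and 2.18). Hadh, the dehydrogenase for shorter chains, had 147, 192 and 275 FPKM in SZ kidneys, 73.0, 116 and 193 in CKD kidneys and 247, 277 and 295 in NC kidneys. Its CKD libraries were all below NC, and its fold changes were -1.21 (SE 0.21, adjusted p = 0.00013) in CKD against NC and 0.68 (SE 0.21, adjusted p = 0.045) in SZ against CKD, the last held in 13 of 30 alternatives. Acaa2, the matrix thiolase, had 141, 218 and 324 FPKM in SZ kidneys, 70.8, 144 and 207 in CKD kidneys and 222, 291 and 432 in NC kidneys. No CKD library reached the NC range, with -1.19 (SE 0.26, adjusted p = 0.001), while SZ against CKD gave 0.75 (SE 0.26, adjusted p = 0.066) and did not pass. Echs1, the short-chain hydratase, fell by 1.05 (SE 0.20) in CKD kidneys.

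Electrons from the dehydrogenases pass through a flavoprotein of an alpha subunit (Etfa) and a beta subunit (Etfb) to its ubiquinone oxidoreductase (Etfdh). Etfdh fell by 1.10 (SE 0.18) and Etfa by 0.60 (SE 0.16) in CKD against NC kidneys. Etfb had 7.04, 12.1 and 15.0 FPKM in SZ kidneys, 6.21, 10.2 and 25.3 in CKD kidneys and 16.0, 17.1 and 23.5 in NC kidneys. CKD 1 held more Etfb than every NC library and CKD 5 lay inside the NC range, while the other 4 CKD libraries lay below it. The log2 fold change of -0.57 (SE 0.28, adjusted p = 0.095) did not pass. Etfb passed without CKD 1, without CKD 5, without CKD 2, CKD 5 and SZ 3 together, with array weights and after correction for gene length. The auxiliary enzymes for unsaturated chains, Eci1, Eci2, Decr1 and Ech1, all fell in CKD against NC, between 0.67 and 0.98 on the log2 scale.

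**Figure D2:**
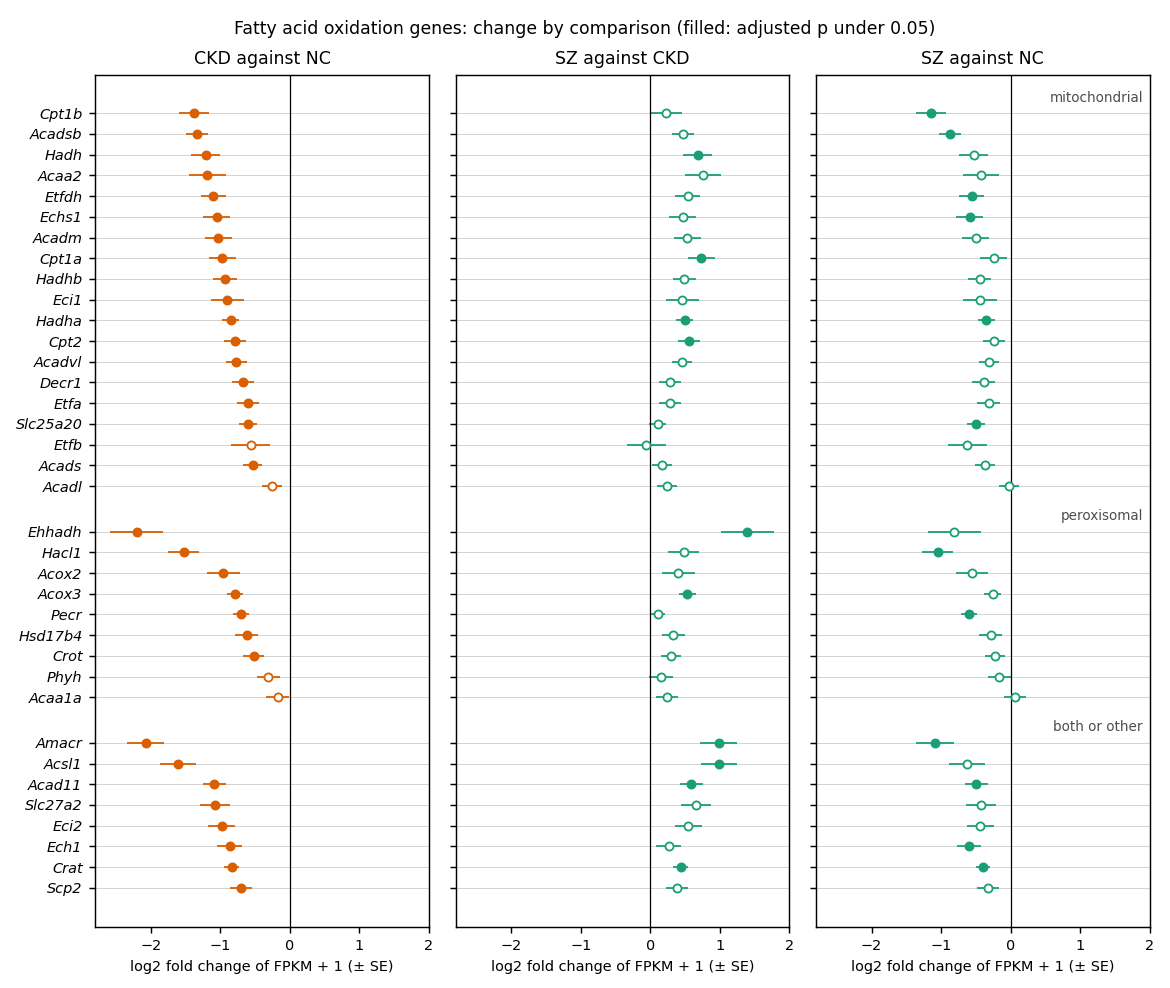
Log2 fold change of FPKM + 1 (horizontal axis, bars ± SE) of 36 genes (vertical axis, by compartment) in CKD against NC, SZ against CKD and SZ against NC, with filled points for an adjusted p under 0.05. All 36 points lie below 0 in CKD against NC as deposited (Acadl, Acaa1a and Phyh lie above 0 under TPM scaling and plain totals), and 10 filled points lie above 0 in SZ against CKD.

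Peroxisomal genes held both the largest fall and the smallest. Of the 9 measured, 7 fell in CKD against NC, with a median of -0.70. Ehhadh, the bifunctional hydratase and dehydrogenase that acts on straight and dicarboxylic chains, had 68.4, 89.9 and 141 FPKM in SZ kidneys, 8.40, 47.2 and 74.4 in CKD kidneys and 136, 147 and 260.4 in NC kidneys. CKD 5 held 8.40 FPKM, and no CKD library reached the lowest NC library. Its log2 fold change was -2.20 (SE 0.38, adjusted p = 0.00011) in CKD against NC and 1.39 (SE 0.38, adjusted p = 0.027) in SZ against CKD, where CKD 1 lay inside the SZ range. Hsd17b4, the other multifunctional enzyme, serves branched and very long chains, and it had 75.1, 96.5 and 108 FPKM in SZ kidneys, 46.7, 73.1 and 115 in CKD kidneys and 102, 115 and 124 in NC kidneys. All ranges overlapped and the fall was smaller, at -0.62 (SE 0.17, adjusted p = 0.0045) in CKD against NC. Ehhadh made up 50.5% of the summed FPKM of this pair in SZ, 33.2% in CKD and 59.3% in NC kidneys (SD 7.04, 9.96 and 7.06). The CKD range of this share, 15.2% to 39.4%, lay below the NC range of 53.1% to 71.8%.

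Alpha oxidation takes a single carbon from methyl-branched chains such as phytanic acid. Its second enzyme, Hacl1, a lyase, had 13.3, 16.5 and 21.9 FPKM in SZ kidneys, 6.26, 14.1 and 16.5 in CKD kidneys and 21.2, 39.6 and 48.4 in NC kidneys. CKD and NC libraries did not overlap, and the log2 fold change was -1.53 (SE 0.22, adjusted p = 2.3e-05) in CKD and -1.05 (SE 0.22, adjusted p = 0.0027) in SZ against NC. Its first enzyme, the phytanoyl-CoA hydroxylase Phyh, had 234, 268 and 361 FPKM in SZ kidneys, 168, 263 and 322 in CKD kidneys and 243, 321 and 348 in NC kidneys. The 3 groups overlapped throughout and the log2 fold change of -0.31 (SE 0.17, adjusted p = 0.13) in CKD against NC did not pass, with a 95% interval of -0.67 to 0.04. Phyh was called lower after correction for gene length, with array weights and without CKD 2, CKD 5 and SZ 3 together. Under TPM scaling and plain totals it lay above 0. Pecr, the reductase of peroxisomal chain elongation, fell in both adenine groups: -0.70 (SE 0.11, adjusted p = 4.4e-05) in CKD against NC and -0.60 (SE 0.11, adjusted p = 0.00081) in SZ against NC. The difference of SZ against CKD, 0.11 (SE 0.11, adjusted p = 0.54), did not pass and had a 95% interval of -0.12 to 0.34.

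Acyl-CoA oxidases make the first peroxisomal step. Acox3, the pristanoyl oxidase, had 16.1, 19.0 and 23.2 FPKM in SZ kidneys, 10.1, 14.1 and 14.7 in CKD kidneys and 19.9, 23.0 and 27.9 in NC kidneys. Every SZ library lay above every CKD library and every CKD library lay below every NC library, with 0.53 (SE 0.12, adjusted p = 0.012) in SZ against CKD and -0.79 (SE 0.12, adjusted p = 3.1e-05) in CKD against NC. Acox2, the oxidase of bile acid intermediates and branched chains, was low at 1.18, 2.47 and 4.39 FPKM in SZ kidneys, 0.756, 1.91 and 2.32 in CKD kidneys and 1.95, 4.52 and 6.12 in NC kidneys. Its groups overlapped, with -0.96 (SE 0.24, adjusted p = 0.0025) in CKD against NC. Crot, which turns shortened chains into carnitine esters for export to mitochondria, had 20.7, 23.1 and 28.5 FPKM in SZ kidneys, 14.0, 19.1 and 27.4 in CKD kidneys and 24.1, 27.4 and 37.6 in NC kidneys. These ranges overlapped too, and the log2 fold change was -0.52 (SE 0.15, adjusted p = 0.0064) in CKD against NC. Acaa1a, a peroxisomal thiolase, had 45.1, 64.8 and 76.5 FPKM in SZ kidneys, 37.6, 55.6 and 60.2 in CKD kidneys and 47.4, 55.4 and 87.9 in NC kidneys, a flat profile with -0.18 (SE 0.16, adjusted p = 0.38) in CKD against NC. Acaa1b, a thiolase of near-identical sequence outside the list of 37, fell by 1.66 (SE 0.32). Acaa1a thus made up 43.3% of the summed FPKM of the 2 thiolases in SZ, 54.9% in CKD and 30.7% in NC kidneys (SD 6.85, 10.7 and 7.31). Reads of these 2 copies may have been split between them, so both values are uncertain.

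**Figure D3:**
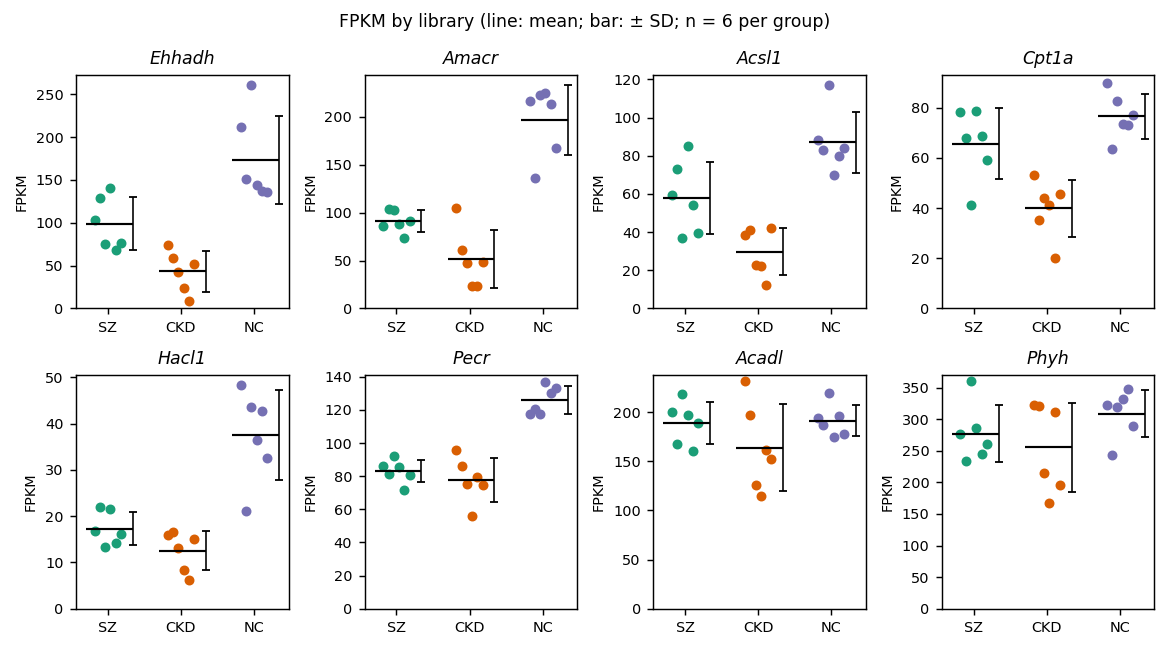
FPKM (vertical axis, from 0) of 8 genes in each library of the SZ, CKD and NC groups, with points for libraries, lines for means and bars for ± SD (n = 6). Ehhadh, Amacr, Acsl1, Cpt1a and Hacl1 lie lowest in CKD, the SZ and CKD ranges of Pecr overlap below NC, and Acadl and Phyh overlap in all 3 groups.

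The 8 genes of the both or other class all fell in CKD against NC, with a median of -1.03. Amacr, the racemase that turns branched acyl-CoA to the form the oxidases accept, had 73.3, 89.9 and 104 FPKM in SZ kidneys, 23.9, 48.1 and 105 in CKD kidneys and 136, 215 and 225 in NC kidneys. Every CKD and SZ library lay below every NC library. CKD 1 lay above every SZ library, while the other CKD libraries lay below every SZ library. Its log2 fold change was -2.07 (SE 0.27, adjusted p = 6.0e-06) in CKD against NC, 0.98 (SE 0.27, adjusted p = 0.027) in SZ against CKD and -1.09 (SE 0.27, adjusted p = 0.0076) in SZ against NC. Acsl1, the main long-chain acyl-CoA synthetase of oxidising tissues, had 37.1, 56.7 and 85.0 FPKM in SZ kidneys, 12.5, 30.7 and 41.9 in CKD kidneys and 69.9, 83.6 and 117 in NC kidneys. CKD and NC did not overlap, with -1.61 (SE 0.26, adjusted p = 6.0e-05), and SZ against CKD gave 0.99 (SE 0.26, adjusted p = 0.024). Slc27a2, a peroxisomal and membrane acyl-CoA synthetase for very long chains, had 138, 186 and 214 FPKM in SZ kidneys, 62.3, 127 and 175 in CKD kidneys and 203, 252 and 280.5 in NC kidneys. CKD libraries lay below NC, at -1.08 (SE 0.22, adjusted p = 0.00045), and SZ against CKD, at 0.66 (SE 0.22, adjusted p = 0.057), did not pass. Acad11, a dehydrogenase found in both organelles, had 16.9, 19.7 and 28.7 FPKM in SZ kidneys, 9.15, 13.6 and 20.7 in CKD kidneys and 23.9, 31.8 and 38.2 in NC kidneys. It fell in CKD against NC without overlap, at -1.09 (SE 0.17, adjusted p = 3.4e-05), and rose in SZ against CKD, at 0.59 (SE 0.17, adjusted p = 0.03).

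Crat, which moves acetyl and short acyl groups between coenzyme A and carnitine, separated all 3 groups, with 61.4, 68.0 and 78.4 FPKM in SZ kidneys, 40.7, 50.9 and 60.0 in CKD kidneys and 81.0, 91.2 and 98.8 in NC kidneys. Its log2 fold change was -0.83 (SE 0.11, adjusted p = 5.3e-06) in CKD against NC, 0.44 (SE 0.11, adjusted p = 0.018) in SZ against CKD and -0.40 (SE 0.11, adjusted p = 0.013) in SZ against NC. Ech1, an isomerase of dienoyl chains, had 56.3, 79.9 and 92.9 FPKM in SZ kidneys, 39.4, 61.6 and 86.3 in CKD kidneys and 90.6, 113 and 139 in NC kidneys. It fell in CKD without overlap with NC, at -0.87 (SE 0.18, adjusted p = 0.00061), and SZ lay between and overlapped with both. Eci2, an isomerase of enoyl chains, had 70.2, 86.8 and 124 FPKM in SZ kidneys, 39.0, 62.0 and 107 in CKD kidneys and 100.3, 117 and 144 in NC kidneys, with overlap through CKD 1 and -0.98 (SE 0.19, adjusted p = 0.00038) in CKD against NC. Scp2, a thiolase and sterol carrier for branched chains and bile acid precursors, had 29.5, 33.2 and 41.8 FPKM in SZ kidneys, 19.7, 26.1 and 35.3 in CKD kidneys and 33.2, 47.4 and 50.8 in NC kidneys. Its CKD and NC ranges overlapped and the log2 fold change was -0.70 (SE 0.16, adjusted p = 0.0014).

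With SZ-A, 10 of the 36 genes rose and 0 fell relative to CKD kidneys, where 4.16% of all genes were called higher and 6.82% lower (576 and 945 genes, against 291 and 1708 under TPM scaling and 382 and 1752 under plain totals). They were Cpt1a, Cpt2, Hadha and Hadh in mitochondria, Acox3 and Ehhadh in peroxisomes, and Crat, Acad11, Amacr and Acsl1 in the class of both or other. The median of the 36 genes was 0.46, beside 0.0055 for all genes, and Etfb was the only one with a value below 0 as deposited (Slc25a20 and Pecr also fell below 0 under TPM scaling and plain totals, and Etfb turned positive after length correction and with array weights). The largest rises were Ehhadh, at 1.39 (SE 0.38), Acsl1, at 0.99 (SE 0.26), and Amacr, at 0.98 (SE 0.27). SZ libraries lay wholly above CKD libraries for 2 of the 36 genes, Acox3 and Crat, as for 0.628% of all genes, and wholly below for 0 of the 36, as for 1.63% of all genes. This comparison uses the same CKD libraries as CKD against NC, so the changes in opposite directions are not independent. The count was unsteady: it was 23 without CKD 1, 5 without CKD 4, 5 without CKD 5, 5 without SZ 1, 4 without SZ 2 and 2 without SZ 4. Acox3 and Hadha kept their call whichever single library was left out, but both lost it under TPM scaling, along with Cpt1a and Crat, and Hadha also lost it without CKD 2, CKD 5 and SZ 3. Hadh kept its call in 13 of 30 alternatives, and the other 9 genes kept theirs in 22 to 29. With only SZ and CKD libraries in the fit, Acox3 was the 1 gene called, while a correction for gene length gave 17 genes and array weights 21. With no filter on low values 5 were called, and under TPM scaling 6.

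Relative to NC kidneys, 12 of the 36 genes were lower under SZ-A and 0 were higher, where 8.61% of all genes were called lower and 12.5% higher (1193 and 1726 genes, against 266 and 3431 under TPM scaling and 381 and 2861 under plain totals). They were Cpt1b, Slc25a20, Acadsb, Hadha, Echs1 and Etfdh in mitochondria, Pecr and Hacl1 in peroxisomes, and Crat, Acad11, Ech1 and Amacr. The median of the 36 genes was -0.44, beside -0.04 for all genes, and 13 genes had no SZ library as high as the lowest NC library, as for 5.7% of all genes. For 0 genes did SZ lie wholly above NC, as for 8.86% of all genes. Without NC 1, NC 3, SZ 5 or SZ 6 the count was 7 in each case, and without NC 4 or NC 5 it was 8. Under TPM scaling and under plain totals 5 were called: Cpt1b, Acadsb, Pecr, Hacl1 and Amacr. With only SZ and NC libraries in the fit 26 were called, and with array weights 28. The calls of Cpt1b, Slc25a20, Acadsb, Pecr, Hacl1, Crat and Amacr held whichever single library was left out. Those of Hadha, Acad11, Echs1 and Etfdh held in 8, 17, 17 and 18 of 30 alternatives. As deposited, group medians were in the order CKD, SZ, NC from low to high for 34 of the 36 genes, with Acadl and Acaa1a as the exceptions. The share of all genes in that order was not computed, and the order depends on scaling. Under TPM scaling the change in SZ against NC was above 0 for Cpt1a, Cpt2, Acadl, Crot, Acox3, Hsd17b4 and Phyh. That in SZ against CKD was below 0 for Slc25a20 and Pecr. By the test, 4 genes (Hadha, Crat, Acad11 and Amacr) were lower in CKD against NC, higher in SZ against CKD and lower in SZ against NC, as were 1.12% of all genes. For 8 genes, among them Cpt1b, Pecr and Hacl1, both adenine groups were lower than NC and SZ against CKD did not pass, as for 6.71% of all genes.

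By the mean over their genes, the mitochondrial and peroxisomal sets lay at a similar distance from each other in all 3 groups, while their median changes differed. The median log2 fold change of mitochondrial and peroxisomal genes was -0.90 and -0.70 in CKD against NC, 0.47 and 0.33 in SZ against CKD and -0.44 and -0.29 in SZ against NC. Mean log2(FPKM + 1) of the 19 mitochondrial genes was 6.15 ± 0.13 in SZ, 5.74 ± 0.39 in CKD and 6.62 ± 0.08 in NC kidneys (SD, n = 6). For the 9 peroxisomal genes it was 5.39 ± 0.10 in SZ, 4.95 ± 0.33 in CKD and 5.82 ± 0.18 in NC kidneys. Both sets had their lowest means in CKD, and within a set the NC and SZ libraries did not overlap. The difference between the sets within a library was 0.76 ± 0.07 in SZ, 0.79 ± 0.18 in CKD and 0.80 ± 0.11 in NC kidneys, and the group means lay closer than the spread of any group. Peroxisomal genes made up 24.9% of the summed FPKM of both sets in SZ, 26.9% in CKD and 24.3% in NC kidneys (SD 0.48, 2.50 and 1.39).

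**Figure D4:**
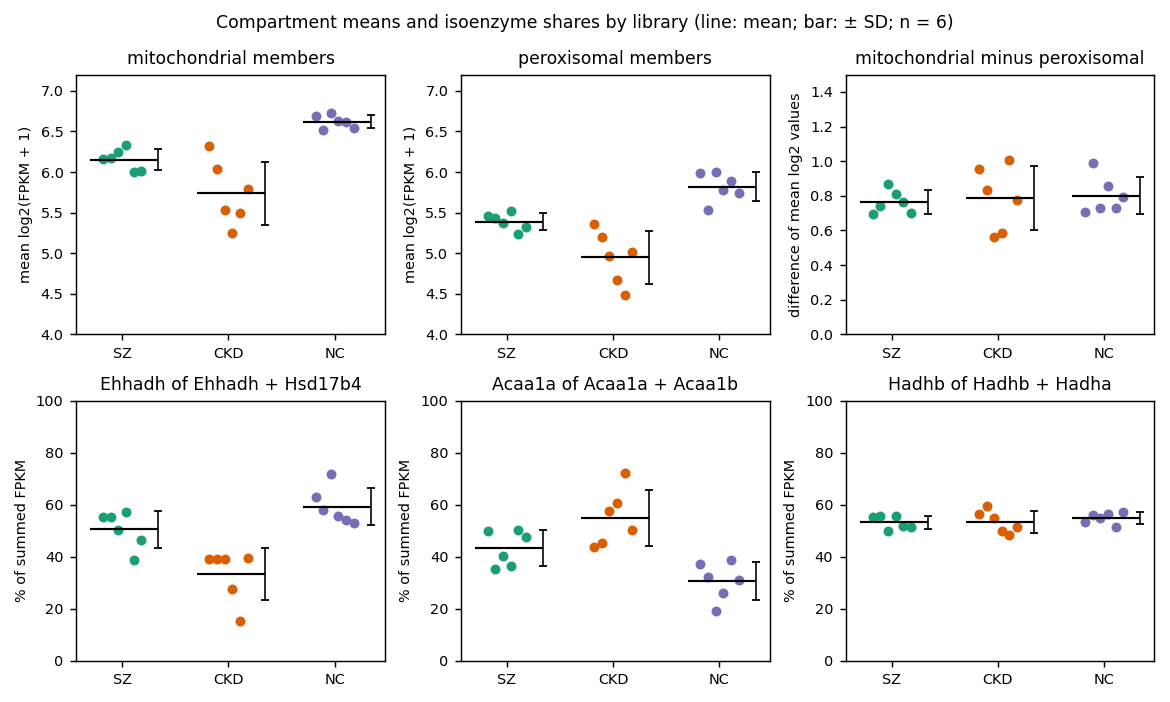
Per library, mean log2(FPKM + 1) of 19 mitochondrial and 9 peroxisomal genes and their difference (top row), and the share of 1 gene in the summed FPKM of a pair in % (bottom row), for SZ, CKD and NC libraries with mean and ± SD (n = 6). The difference of the sets averages 0.76 to 0.80 in all 3 groups, while the share of Ehhadh is lowest and that of Acaa1a highest in CKD.

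Within the CKD group the libraries spread widely. CKD 1 held the highest value of its group for 25 of the 36 genes, CKD 4 the lowest for 21 and CKD 5 the lowest for 13. CKD 4 and CKD 5 differed in which genes were low. The 13 genes lowest in CKD 5 had a median length of 3525 bases, and the 21 lowest in CKD 4 had a median of 1771 bases. Over the 36 genes, the deviation from the CKD mean changed by -0.31 log2 units per doubling of length in CKD 5 and by 0.26 in CKD 4. In the SZ group, SZ 3 held the highest value for 16 genes with a median length of 2165 bases and the lowest for 9 genes with a median of 4127 bases. Acsl1, Hacl1, Cpt1a and Acadsb were among those lowest in SZ 3, and the short genes Slc25a20 and Etfb among those highest there, but so was Scp2, at 7240 bases the longest of the 36. The part of gene length in the results of single genes was not tested beyond the length correction given with the counts.

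**Figure D5:**
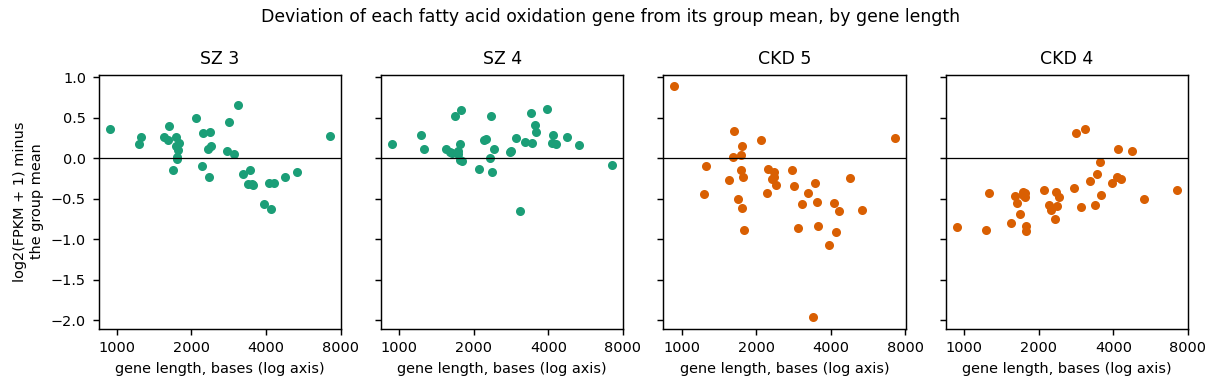
Deviation of log2(FPKM + 1) from the group mean (vertical axis) against gene length in bases (horizontal log axis) for 36 genes in SZ 3, SZ 4, CKD 5 and CKD 4. Values slope down with length in SZ 3 and CKD 5 and up in CKD 4, where all but 4 genes lie below the group mean.

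Neighbouring pathways give the context. Their counts in CKD against NC stand beside 26% of all genes called lower and 24.4% called higher. Under TPM scaling 1281 of 13851 genes were lower and 6591 higher. Of 13 tested genes in a list of other mitochondrial fatty acid oxidation and propionate genes, 12 fell in CKD against NC and 0 rose, with a median of -0.72 (6 and 8 fell under TPM scaling and plain totals). The largest falls were those of Mmut and Pcca, which process propionyl-CoA from odd and branched chains, at -1.22 (SE 0.23) and -1.16 (SE 0.16). Of 6 ketone body genes 5 fell, with a median of -1.18. Oxct1, which uses ketone bodies, was at -1.50 (SE 0.23) in CKD against NC and 0.79 (SE 0.23) in SZ against CKD. Of 10 other peroxisomal oxidation genes 8 fell (5 under either scaling) and 1 rose. Abcd3, a carrier of branched acyl-CoA in the peroxisomal membrane, was at -1.20 (SE 0.20) in CKD against NC and 0.71 (SE 0.20) in SZ against CKD. Cat, the catalase that clears the peroxide made by the oxidases, was at -2.04 (SE 0.34) in CKD against NC and 1.22 (SE 0.34) in SZ against CKD. In its list of 11 other peroxisomal enzymes 6 fell and 0 rose in CKD against NC, but 4 fell and 2 rose under TPM scaling. Of 16 peroxins, the proteins that build peroxisomes, 10 fell and 0 rose, with a median of -0.42 that shrank to -0.0059, with 3 lower and 3 higher, under TPM scaling. Of 13 mitochondrial import and chaperone genes 5 fell and 0 rose, with a median of -0.34 that turned to 0.10, with 2 lower and 3 higher, under TPM scaling. Vdac1, an outer membrane channel, was at -0.98 (SE 0.13). Relative to the median of all genes, the peroxin median lay at -0.38 as deposited and -0.35 under TPM scaling, and the import median at -0.30 and -0.24. As 1 factor per library shifts all genes nearly alike, such gaps could hardly move with scaling and do not test the falls.

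Acyl-CoA synthetases and carnitine supply genes did not move as 1 block. Of 10 tested, 6 fell and 3 rose in CKD against NC (5 and 4 under TPM scaling and plain totals). Among all genes 26% were called lower and 24.4% higher. Slc22a5, the carnitine transporter, was at -1.50 (SE 0.24) and Tmlhe, the first enzyme of carnitine synthesis, at -1.58 (SE 0.35). Those that rose were Acsl5, Slc27a1 and Slc27a4, which also activate long-chain fatty acids. Acsl5 had 11.5, 13.4 and 15.4 FPKM in SZ kidneys, 14.3, 17.0 and 18.5 in CKD kidneys and 5.71, 6.90 and 8.14 in NC kidneys. Every SZ and CKD library lay above every NC library, with 1.15 (SE 0.09, adjusted p = 3.8e-08) in CKD against NC and 0.86 (SE 0.09, adjusted p = 6.8e-06) in SZ against NC. Slc27a1 and Slc27a4 were higher by 0.37 (SE 0.10) and 0.30 (SE 0.12).

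Markers of other cell types moved in the same libraries. All 6 macrophage markers and all 6 fibroblast markers rose in CKD against NC, with medians of 2.85 and 2.90. Among all genes 24.4% were called higher and 26% lower in that comparison. All 5 tested markers of the thick limb and distal tubule and 5 of 6 of the collecting duct fell (3 of 5 and 3 of 6 under TPM scaling). Macrophage markers summed to 363 to 806 FPKM in SZ, 857 to 1704 in CKD and 96.4 to 182 in NC kidneys. Of 7 adipocyte markers, Plin1, Plin4, Lep and Ucp1 were under 1 FPKM in all libraries. Of the 3 tested, Cidea was higher in CKD against NC, at 1.09 (SE 0.21), Adipoq was lower, at -0.42 (SE 0.14), and Cidec, at -0.66 (SE 0.44), did not pass. The 7 summed to 8.48 to 28.5 FPKM in SZ, 11.2 to 19.8 in CKD and 10.4 to 41.1 in NC kidneys. Of the 12 proximal tubule markers 7 rose and 0 fell in SZ against CKD, with a median of 0.98. Among all genes 4.16% were called higher and 6.82% lower there. Reads of the mitochondrial chromosome took 14.0% of the total in SZ, 10.3% in CKD and 19.4% in NC kidneys (SD 2.83, 3.61 and 3.28). How far these shifts account for the changes of the 36 genes was not tested.

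Promoters of the listed genes were searched for a repeat that nuclear receptors of the PPAR, RXR and HNF4 families are known to bind. Many of these genes are textbook PPARA targets. The motif was AGGTCA in 2 copies of the same orientation with 1 base of any kind between them (a direct repeat, DR1), on either strand with at most 2 mismatches, in RefSeq promoters of build GRCr8 that run from 250 bases before the start to 50 after. Of the 37 listed genes 32 had a promoter to search, Decr2 included, while Cpt1b, Acadl, Acaa2, Decr1 and Ech1 had none. The repeat was held by 7 of the 32 (21.9%), against 1263 of 33469 promoters in all (3.77%). That background was not limited to genes tested here. An exact match was held by 0 of the 32. The 7 windows below show the matched bases in capitals with 8 bases on each side, 5′ to 3′ on the strand of the gene. Acadvl, 17 bases before the start, was the 1 gene with at most 1 mismatch, a match held by 0.439% of all promoters. In Echs1, Etfa and Slc27a2 the repeat reads on the opposite strand, and in Slc25a20 it begins 15 bases after the start.
Acadvl (chr10:55236702-55236730, minus strand): gggagaagAGGTCAGTGGTCAaggcttca
Amacr (chr2:61673119-61673147, plus strand): taaaccggAGACCAAAGGTCAgcagctaa
Slc27a2 (chr3:134258017-134258045, plus strand): tgaagaaaTGACCTTTGAGATatgccatc
Echs1 (chr1:204333641-204333669, minus strand): ccgctaaaAGACCTCTGATCTgatcttcc
Etfa (chr8:64788099-64788127, minus strand): gcacacccTTACCTTTGCCCTactcccaa
Crat (chr3:34087302-34087330, minus strand): gacgttcaAGGACACCGGTCAgacttgga
Slc25a20 (chr8:118243580-118243608, plus strand): cttaatgtAGGTGAAAGGTCGgtgtagcc

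All 7 genes fell in CKD against NC, from -2.07 for Amacr to -0.60 for Etfa and Slc25a20. These lie inside the range of the searched genes without the repeat, from -2.20 for Ehhadh to -0.18 for Acaa1a. A match describes letters and is no evidence of binding. Hadha and Hadhb start 301 bases apart on opposite strands of chromosome 6 in GRCr8. The gene bounds deposited with the values place them further apart, with starts at bases 26187956 for Hadha and 26184869 for Hadhb. By the GRCr8 starts only, they share the promoter stretch chr6:31907551-31907750. It is printed here on the plus strand, the strand of Hadha. Whether this stretch bears on the fall of either gene was not tested.
Hadha and Hadhb: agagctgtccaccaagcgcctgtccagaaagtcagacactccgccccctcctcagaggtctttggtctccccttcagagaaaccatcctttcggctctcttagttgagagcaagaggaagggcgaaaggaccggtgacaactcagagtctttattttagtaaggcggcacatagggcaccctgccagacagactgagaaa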

How the data were processed

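The authors deposited 1 table of FPKM values per gene for 18 libraries of rat kidney, and 0 value columns were left unused. Per the submitters' processing notes reads were aligned with HISAT2 2.0.5 to mRatBN7.2. The sources used here do not give the counting program, strand setting or annotation, so overlapping and near-identical genes are uncertain. In each library 100% of values, multiplied by gene length, were whole multiples of 1 unit (tolerance 0.01), which gave the read totals. The library sizes behind FPKM were not these totals: the ratio averaged 1.04 in SZ, 1.14 in CKD and 0.896 in NC, so scaling bears on every level.

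Genes with FPKM of at least 1 in at least 6 libraries were tested: 13851, of which 12604 protein coding, with 18265 set aside. Values were log2(FPKM + 1), which understates changes of low genes, and the test was limma 3.58.1 in R 4.3.3 with 1 fit of 3 groups, an intensity trend, 2-sided, and Benjamini-Hochberg adjustment over all genes tested within a comparison. A gene was called at an adjusted p under 0.05, and fell or rose then. Simulated data served to check the fit. The gene list carries no test of its own. Labels put libraries in groups. Names were chosen with earlier results of these data known, as were the compartments, the lists and the alternatives: another pseudocount (0.1), no low-value filter, only genes averaging 5 FPKM or more, TPM scaling, plain totals, leaving out the 20 most abundant genes, voom on recovered reads, lowess length correction (span 0.3), leaving out CKD 2, CKD 5 and SZ 3, fitting only 2 groups, array weights, a replicate block and each library left out. Levels in full went to the 4 largest and 4 smallest fold changes per compartment in CKD against NC, to genes called in SZ against CKD and to genes not called in CKD against NC, and up to 3 called genes per list were named by size of change. List genes outside that rule were named after their values were seen: Slc27a1, Slc27a4, Cidec, the muscle markers and the adipocyte markers under 1 FPKM. Some genes of the lists are counted but not reported by name here. A planned look at protein ends was not done, as no protein table was used here. Figures were drawn with matplotlib 3.10.9.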

Additional observations from a re-analysis of the deposited data

Results flagged for a closer look

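In 108 groups of 6 libraries (36 genes in 3 groups), 1 held a library that stood far from the other 5, and chance alone gives about 1 in 20. Acads, the short-chain acyl-CoA dehydrogenase, was at 62.1 FPKM in SZ 3, against 37.3 to 44.2 FPKM in the other 5 SZ libraries. The gap to the next library was 0.67 of the whole SZ range. SZ 3 is also the SZ library in which values fell with gene length (slope -0.25), and the part of that in the Acads value was not tested.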

How the results depend on the processing

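Over all alternatives, 25 to 35 of the 36 genes were lower in CKD against NC, beside 32 as reported, and 0 were called higher. Counts over all genes and for SZ moved more. By setting, the counts that moved by over 1.5 times were as follows, and the cause was not tested unless fewer libraries or genes made it. Under TPM scaling, all genes numbered 6591 higher and 1281 lower in CKD against NC, 291 and 1708 in SZ against CKD, 3431 and 266 in SZ against NC, with 6 fatty acid genes higher in SZ against CKD and 5 lower in SZ against NC. Under plain library totals they numbered 5980 and 1729, 382 and 1752, 2861 and 381, with 5 fatty acid genes lower in SZ against NC. With a mean FPKM of at least 5, where fewer genes are tested, all genes numbered 1903 higher in CKD against NC, 593 lower in SZ against CKD and 877 higher and 750 lower in SZ against NC. With no filter, SZ against CKD had 338 genes higher in all and 5 of the fatty acid genes. Without the 20 most abundant genes, SZ against NC had 541 lower in all and 7 of the fatty acid genes. After length correction 17 fatty acid genes were higher in SZ against CKD. With only 2 groups in the fit, SZ against CKD had 143 higher and 411 lower with 1 fatty acid gene, and SZ against NC had 1917 lower with 26. With array weights SZ against CKD had 1279 higher and 1551 lower with 21 fatty acid genes, and SZ against NC had 2716 higher and 2776 lower with 28.

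Leaving out each library in turn gave 3130 to 3519 genes higher and 3242 to 3881 lower in CKD against NC, 163 to 1468 and 370 to 1590 in SZ against CKD, and 1451 to 1914 and 735 to 1451 in SZ against NC. Of the fatty acid genes, 32 to 34 were lower in CKD against NC, 2 to 23 higher in SZ against CKD and 7 to 15 lower in SZ against NC, with 0 in the opposite directions. The change in the mitochondrial minus peroxisomal difference lay between -0.058 and 0.030 in the CKD to NC comparison, -0.067 and 0.021 in that of SZ to CKD, and -0.058 and 0.00082 in that of SZ to NC, and the peroxisomal share between 24.7% and 25.0% in SZ, 26.2% and 27.4% in CKD and 24.0% and 24.8% in NC.

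Signs turned for genes called in neither fit. In CKD against NC, Acadl, Acaa1a and Phyh were at 0.19, 0.27 and 0.14 under TPM scaling and 0.085, 0.16 and 0.034 under plain totals. In SZ against CKD, Slc25a20 and Pecr were at -0.040 and -0.039 under TPM scaling and -0.021 and -0.021 under plain totals, Cpt1b at -0.089 without CKD 2, CKD 5 and SZ 3, and Etfb at 0.12 after length correction, 0.10 without those 3 libraries, 0.19 with array weights and -0.22 to 0.15 with single libraries left out. In SZ against NC under TPM scaling, Cpt1a was at 0.062, Cpt2 at 0.052, Acadl at 0.28, Crot at 0.073, Acox3 at 0.036, Hsd17b4 at 0.017 and Phyh at 0.15. Acadl was at 0.19 and Phyh at 0.057 under plain totals, and Acadl at 0.10 without the 20 most abundant genes and 0.029 after length correction. With single libraries left out Acadl ran from -0.067 to 0.023 and Acaa1a from -0.0032 to 0.18.

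Replicate numbers did not pair the libraries: same-numbered libraries deviated together with r of -0.048 to 0.23 for CKD and NC, -0.36 to 0.037 for SZ and CKD and -0.019 to 0.21 for SZ and NC, and 1, 0 and 1 of 6 numbers were best matched by their own. With the replicate block 32 fatty acid genes were lower in CKD against NC, 10 higher in SZ against CKD and 9 lower in SZ against NC. Depth limits the genes of a few FPKM, Cpt1b and Acox2, most.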
